A study of Mus musculus with 9 samples.

Results

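The genes described here encode the receptors for colony-stimulating factors and related growth factors that act on blood-forming cells and their myeloid progeny. They were taken by gene symbol and not by a rule on their values, but with earlier results of these data known. They comprise Csf1r, Csf2ra, Csf2rb, Csf2rb2, Csf3r, Flt3, Kit and Il3ra. These are 8 of the 23238 gene symbols in the count tables, and all 8 were among the 10107 genes that passed the filter on low counts and were tested. The study modelled neuromyelitis optica (NMO), an autoimmune disease in which antibodies (NMO-IgG) bind aquaporin-4 on astrocytes. Wild-type female C57BL/6N mice, 12 weeks old, received NMO-IgG with human complement into the striatum of one hemisphere, and monocytes were sorted on day 1. The sort kept cells that carried CD45, CD11b and Ly6C and lacked P2ry12, a microglial protein, and Ly6G, a neutrophil protein. RNA was read with QuantSeq, which sequences the 3ʹ end of each transcript, as read counts per gene.

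There were 3 groups of 3 libraries. Blood_Normal held blood monocytes of wild-type mice without the injury, Blood_NMO held blood monocytes of injected mice, and Brain_NMO held monocytes from the brains of injected mice. Each library came from a pool of 5 mice, so the spread between libraries is a spread between pools. Blood cells were prepared on a density gradient, and brain cells by perfusion, enzyme digestion and removal of myelin, so tissue and preparation cannot be told apart between brain and blood. Monocytes of normal brain were not analysed here.

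Colony-stimulating factors are secreted proteins that keep myeloid cells alive and direct their growth, maturation and activation. CSF1R, FLT3 and KIT are receptor tyrosine kinases, in which the chain that binds the ligand also carries the kinase. The receptors for GM-CSF, IL-3 and IL-5 instead pair an alpha chain, which gives specificity for the ligand, with a shared beta chain, which passes the signal to JAK2 and STAT5. CSF1R is the receptor for CSF1 and IL-34, and GM-CSF acting through its receptor is known for driving inflammatory functions of monocytes that enter the inflamed central nervous system.

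Total counts ranged from 7584649 to 10419647 per library, and 3 counts, taken as the floor, stood for between 0.273 and 0.432 CPM (CPM scales the counts to a common library size, here with TMM factors). Ribosomal RNA (Rn45s) took 28.4 to 43.6% of the counts. The library of Blood_NMO replicate 3 held the fewest genes with a count, 4567, and Brain_NMO replicate 2 held 6473, against 7495 to 11556 in the other 7 libraries. For the receptor genes, the log2 fold changes of the brain comparisons are also given without both of these libraries. All 10 monocyte markers had counts in each group, with sums of 3712 to 5297 CPM in Blood_Normal, 2882 to 4886 CPM in Blood_NMO and 4654 to 7337 CPM in Brain_NMO. Within Blood_NMO, replicate 3 had counts for 8 of the 10. Other cell types were also represented. Markers of NK cells summed to between 1995 and 3160 CPM in the 6 blood libraries and to between 48.5 and 346 CPM in Brain_NMO.

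Among the 8 receptor genes, Csf2rb, which encodes the shared beta chain, was the gene whose brain level lay above each of the 6 blood libraries. The same held for 3.57% of all genes tested. The mean of Csf2rb in Brain_NMO was 2.66-fold that in Blood_NMO and 2.45-fold that in Blood_Normal by edgeR's fit. In Brain_NMO, Csf1r lay above each Blood_NMO library, as did 6.3% of all genes tested, but not above each Blood_Normal library. Csf2ra and Csf2rb2 had higher means in Brain_NMO with overlapping groups. Csf3r, Flt3, Kit and Il3ra were low, and each had at least 1 library at 0 or at a single count. None of the 8 genes passed an adjusted p of 0.05 in any comparison, and the difference of Csf2rb between brain and blood passed only the unadjusted threshold of the study, a p under 0.05 with at least a 1.2-fold difference. Of all genes tested, 1.48% were higher in Brain_NMO than in Blood_NMO at that threshold, and 1.75% were higher than in Blood_Normal. After adjustment 0% to 0.435% of all genes were called, depending on the comparison.

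**Figure D1:**
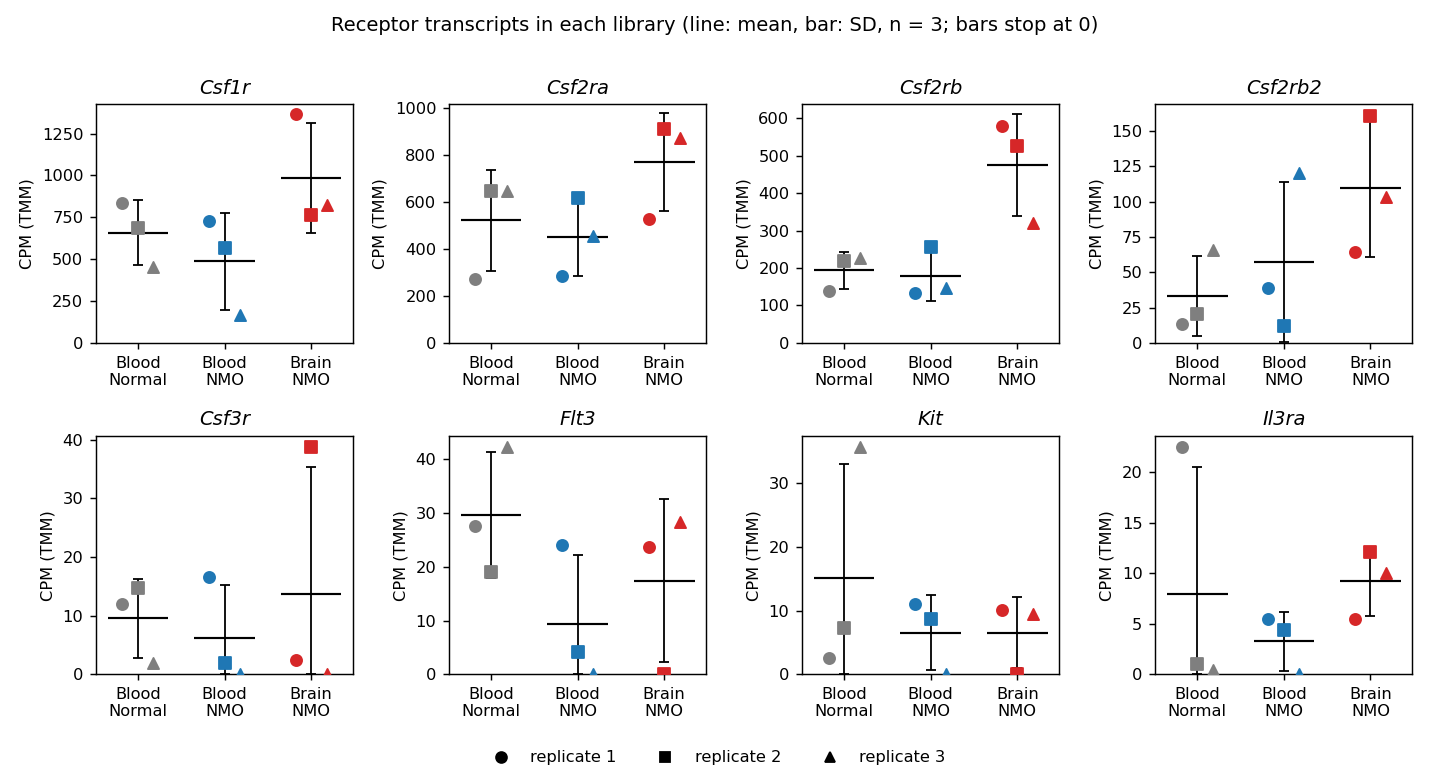
Each panel plots 1 receptor gene, with its level in CPM (TMM-scaled) on the vertical axis and the 3 groups on the horizontal axis. Symbols are libraries (circle, square and triangle for replicates 1, 2 and 3), lines are means and bars are 1 SD, stopped at 0. The 3 Brain_NMO libraries of Csf2rb, from 320.1 to 579 CPM, sit above all blood libraries, whose highest value is 255 CPM.

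Csf1r encodes the CSF1 receptor, the lineage-defining growth factor receptor of monocytes, macrophages and microglia. It was measured at 834, 688 and 454 CPM in replicates 1, 2 and 3 of Blood_Normal, at 727, 567 and 167 CPM in Blood_NMO, and at 1364, 766 and 825 CPM in Brain_NMO. The lowest value came from Blood_NMO replicate 3 and the highest from Brain_NMO replicate 1, and the lowest brain library lay between the highest libraries of the blood groups. Means were 985 ± 330 CPM (SD, n = 3) in Brain_NMO, 659 ± 192 CPM in Blood_Normal and 487 ± 288 CPM in Blood_NMO. Brain_NMO against Blood_NMO gave a log2 fold change of 1.02 (standard error 0.48, 95% interval -0.02 to 2.05, edgeR adjusted p = 0.802), which did not pass the unadjusted threshold of the study in the reported fit and passed it in 8 of 20 alternative fits. Without Blood_NMO replicate 3 this value was 0.62, and without Blood_NMO replicate 1 it was 1.42. Without both libraries with the fewest genes the brain values were 0.77 against Blood_NMO and 0.75 against Blood_Normal. Against Blood_Normal the brain value was 0.58 (standard error 0.48, adjusted p = 1), and between the blood groups the value was -0.44 (standard error 0.48, adjusted p = 1). Neighbouring groups in the order of the means therefore did not differ beyond their spread. Microglia also make CSF1R. The 12 microglia markers summed to 1407 to 2317 CPM in Brain_NMO, 913 to 1517 CPM in Blood_Normal and 262 to 1063 CPM in Blood_NMO, with 0, 7 and 6 of them at 0 in each library of the group, among these Tmem119, Gpr34 and Fcrls in both blood groups. Most of the blood sum was Cst3, and without it, a choice made after its values were seen, the sums were 464 to 775 CPM in Brain_NMO, 31.2 to 74.1 CPM in Blood_Normal and 0 to 53.0 CPM in Blood_NMO. Their part in the level of Csf1r was not tested. In bulk samples, fewer cells of a type and less RNA per cell cannot be told apart. Reads of Hmgxb3, a gene on the opposite strand that overlaps Csf1r by 873 bases, could also have been counted, because the strand setting of the counting is not given in the sources used here.

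Csf2ra encodes the alpha chain of the GM-CSF receptor (chr19:61223957-61228429, minus strand, GRCm38). Its levels were 273, 647 and 645 CPM in Blood_Normal, 283, 615 and 455 CPM in Blood_NMO, and 528, 908 and 872 CPM in Brain_NMO. Replicate 1 was the lowest library in each group, and the groups overlapped. Means were 769 ± 210 CPM (SD, n = 3) in Brain_NMO, 522 ± 215 CPM in Blood_Normal and 451 ± 166 CPM in Blood_NMO. The log2 fold change of Brain_NMO was 0.77 against Blood_NMO (standard error 0.44, 95% interval -0.17 to 1.71, edgeR adjusted p = 0.853) and 0.56 against Blood_Normal (standard error 0.43, adjusted p = 1). Between the blood groups it was -0.21 (standard error 0.43, adjusted p = 1). Without both libraries with the fewest genes the brain values were 0.65 and 0.44 in turn. No difference of the alpha chain lay beyond the spread between libraries, and intervals of this width do not show that its levels were alike.

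Csf2rb encodes the beta chain shared by the receptors for GM-CSF, IL-3 and IL-5. Beside it in the mouse genome lies Csf2rb2, a copy whose product is known as the beta chain specific to the IL-3 receptor. The genes lie on opposite strands of chromosome 15, Csf2rb at chr15:78325752-78353847 on the plus strand and Csf2rb2 at chr15:78282507-78305721 on the minus strand (GRCm38, GENCODE M21), with their starts 20031 bases apart. Their coding sequences, of 2688 bases in transcript Csf2rb-206 and 2634 bases in Csf2rb2-201, matched at 95.24% of 2628 aligned positions. Of the 2560 windows of 75 bases (the read length) in the Csf2rb2 coding sequence, 413 occur unchanged in that of Csf2rb. A read from such a window fits both genes, and unique and multiple alignments were both counted. The first pair of lines below is such a window, at coding bases 485 to 559 of Csf2rb and 488 to 562 of Csf2rb2. The second pair is the window with the most differences, at bases 316 to 390 and 319 to 393, where capitals mark the 14 positions at which the genes differ. The sequences are those of GENCODE M21.
Csf2rb, window without differences: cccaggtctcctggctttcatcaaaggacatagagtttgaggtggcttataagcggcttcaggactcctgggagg
Csf2rb2, window without differences: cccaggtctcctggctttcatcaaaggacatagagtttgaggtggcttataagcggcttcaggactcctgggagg
Csf2rb, window with the most differences: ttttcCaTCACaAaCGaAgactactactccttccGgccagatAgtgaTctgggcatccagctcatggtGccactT
Csf2rb2, window with the most differences: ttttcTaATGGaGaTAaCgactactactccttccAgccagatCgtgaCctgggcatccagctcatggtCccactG

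The reads of a 3ʹ library come mostly from the ends of transcripts, where the copies differ more. Over the last 500 bases the transcripts matched at 85.81% of 465 aligned positions, the longest unchanged run was 36 bases, and 0 of the 426 windows of 75 bases were shared. Over the whole transcripts 518 windows were shared. A read from the end of a transcript thus fits a single gene of the pair without mismatches, while a read from within the coding sequence may fit both, so the split between the genes is uncertain.

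Csf2rb was measured at 137, 218 and 225 CPM in Blood_Normal, at 134, 255 and 147 CPM in Blood_NMO, and at 579, 525 and 320.1 CPM in Brain_NMO. Each brain library lay above each blood library, while the blood groups overlapped. Means were 475 ± 137 CPM (SD, n = 3) in Brain_NMO, 193 ± 48.8 CPM in Blood_Normal and 178 ± 66.5 CPM in Blood_NMO. Against Blood_NMO the log2 fold change of Brain_NMO was 1.41 (standard error 0.48, 95% interval 0.38 to 2.45, edgeR adjusted p = 0.711). Against Blood_Normal it was 1.30 (standard error 0.48, 95% interval 0.26 to 2.33, edgeR adjusted p = 0.708). Against the mean of both blood groups it was 1.35 (standard error 0.40, 95% interval 0.51 to 2.20, edgeR adjusted p = 0.293). All 3 differences passed the unadjusted threshold. These comparisons share libraries and are not independent of each other. Between the blood groups the value was -0.12 (standard error 0.47, 95% interval -1.13 to 0.90, adjusted p = 1). The unadjusted call depended on single libraries. The difference from Blood_NMO no longer passed without Blood_NMO replicate 1 (log2 fold change 1.24, edgeR adjusted p = 0.895). That from Blood_Normal no longer passed without Blood_Normal replicate 1 (1.10, adjusted p = 0.875) and without Brain_NMO replicate 1 (1.13, adjusted p = 0.644). Without both libraries with the fewest genes the log2 fold changes were 1.22 and 1.23, and both passed it. Marker sums of other cell types also differed between brain and blood libraries. In Brain_NMO, replicate 1 had the highest Csf2rb and the lowest neutrophil sum, 496 CPM. Its sum of microglia markers other than Cst3, 464 CPM, was also the lowest of the brain libraries. Neutrophil markers summed to 496 to 1927 CPM in Brain_NMO, 83.1 to 289 CPM in Blood_Normal and 127 to 343 CPM in Blood_NMO, the sum of the microglia markers other than Cst3 was also higher in each brain library than in each blood library, and that of the NK cell markers was lower. Their part in the level of Csf2rb was not tested.

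Csf2rb2 was measured at 13.2, 20.4 and 66.0 CPM in Blood_Normal, at 38.8, 11.9 and 121 CPM in Blood_NMO, and at 64.5, 161 and 103 CPM in Brain_NMO. The highest blood library, Blood_NMO replicate 3, lay within the range of the brain libraries. Means were 109.6 ± 48.5 CPM (SD, n = 3) in Brain_NMO, 57.1 ± 56.7 CPM in Blood_NMO and 33.2 ± 28.6 CPM in Blood_Normal. Brain_NMO had a log2 fold change of 0.94 against Blood_NMO (standard error 1.09, 95% interval -1.39 to 3.27, edgeR adjusted p = 1) and 1.72 against Blood_Normal (standard error 1.11, 95% interval -0.66 to 4.10, adjusted p = 0.957). Without Blood_NMO replicate 3 the value against Blood_NMO was 2.12, and without both libraries with the fewest genes the values were 1.74 and 1.35. Neither difference lay beyond the spread between libraries.

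The sum of both beta genes does not change with the way shared reads were split between them, although a read counted for both enters it more than once. It was 150.5, 238 and 291 CPM in Blood_Normal, 172, 267 and 267 CPM in Blood_NMO, and 644, 686 and 423 CPM in Brain_NMO. Each brain library again lay above each blood library. Means were 584 ± 141 CPM (SD, n = 3), against 227 ± 71.1 CPM in Blood_Normal and 235 ± 54.6 CPM in Blood_NMO. Csf2rb2 made up 8.80%, 8.56% and 22.7% of the pair's counts in Blood_Normal, 22.5%, 4.45% and 45.2% in Blood_NMO, and 10.01%, 23.5% and 24.4% in Brain_NMO. The 95% Wilson interval of the highest share, in Blood_NMO replicate 3, was 43.4% to 47.0% of 2941 counts, and that of the lowest, in Blood_NMO replicate 2, was 3.70% to 5.34% of 2450 counts. The Blood_NMO libraries thus spanned the whole range of shares, and those of the brain lay within the range of the blood.

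**Figure D2:**
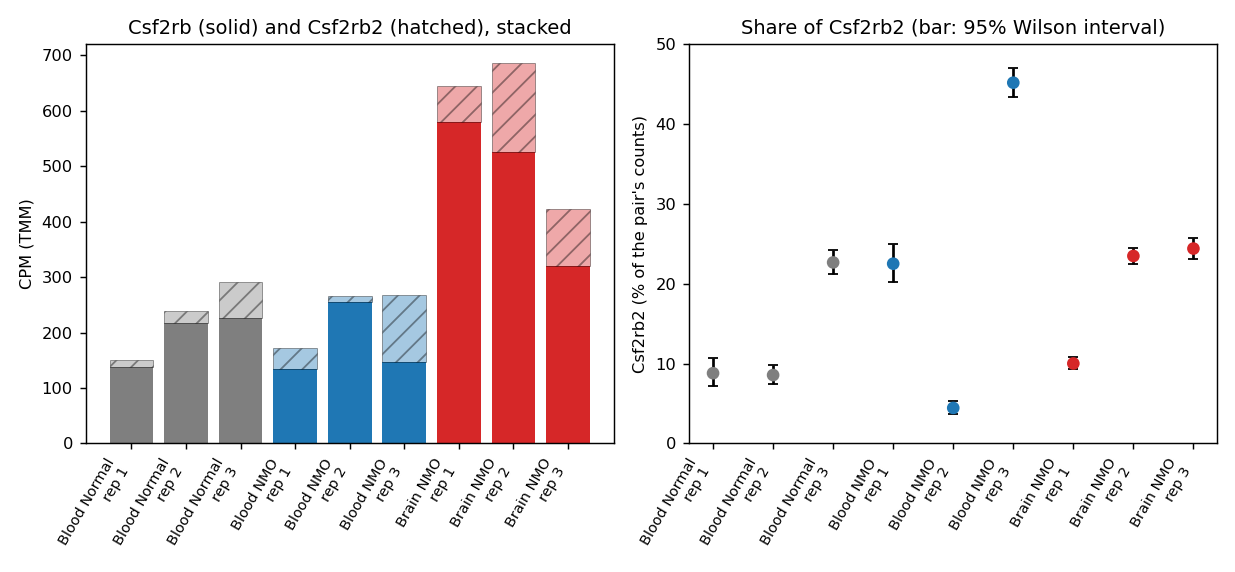
The left panel stacks the levels of Csf2rb (solid) and Csf2rb2 (hatched) in CPM for each of the 9 libraries, and the right panel plots the share of Csf2rb2 in the pair's counts, in percent, with its 95% Wilson interval, which covers counting error only. The stacked bars of the brain libraries, from 423 to 686 CPM, are the highest, while the shares, from 4.45% to 45.2%, follow no group.

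Il3ra encodes the alpha chain of the IL-3 receptor (chr14:14346275-14356011, plus strand, GRCm38). It was measured at 22.4, 1.06 and 0.409 CPM in Blood_Normal, at 5.46, 4.35 and 0 CPM in Blood_NMO, and at 5.43, 12.1 and 10.05 CPM in Brain_NMO. A single library, Blood_Normal replicate 1, held the highest value, and Blood_NMO replicate 3 had no count. The floor of 0.273 CPM in that library covers counting error only and is not an upper limit of the level. Cd14, at 239 and 400 CPM in Blood_NMO replicates 1 and 2, was also at 0 there. Its log2 fold change in Brain_NMO was 1.49 against Blood_NMO (standard error 2.97, 95% interval -4.90 to 7.87) and 0.21 against Blood_Normal (standard error 2.91), and between the blood groups it was -1.28 (standard error 2.96, edgeR adjusted p = 1 in each). Without Blood_Normal replicate 1 the brain value against Blood_Normal was 3.62 and the value between the blood groups 2.14, so the order of the groups rested on that library. Without both libraries with the fewest genes the brain values were 0.67 against Blood_NMO and -0.023 against Blood_Normal. The 7 markers of plasmacytoid dendritic cells summed to 118 to 245 CPM in Blood_Normal, 87.7 to 214 CPM in Blood_NMO and 90.2 to 364 CPM in Brain_NMO, with 1, 2 and 2 of them at 0 in each library of the group. Tcf4 held 142, 221 and 74.3 CPM of the sums in Blood_Normal and 177, 155 and 87.6 CPM in Blood_NMO. In Brain_NMO it held 33.2, 148 and 292 CPM. The part of these markers in the level of Il3ra was not tested, nor was that of Gm48860, an antisense gene that overlaps Il3ra by 990 bases.

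Csf3r encodes the G-CSF receptor (chr4:126024550-126044440, plus strand, GRCm38), which acts in neutrophils and their precursors and is also found on monocytes. Its levels were 12.1, 14.7 and 1.94 CPM in Blood_Normal, 16.5, 1.96 and 0 CPM in Blood_NMO, and 2.37, 38.7 and 0 CPM in Brain_NMO. The highest value, in Brain_NMO replicate 2, stood beside a brain library with no count, and the SD exceeded the mean in both NMO groups (13.7 ± 21.7 CPM in Brain_NMO and 6.16 ± 9.03 CPM in Blood_NMO, n = 3). The log2 fold change of Brain_NMO was 1.15 against Blood_NMO (standard error 3.01, edgeR adjusted p = 1) and 0.52 against Blood_Normal (standard error 2.98, adjusted p = 1), and between the blood groups it was -0.64 (standard error 2.99, adjusted p = 1). Both brain values turned, to -2.94 and -2.98 in turn, without both libraries with the fewest genes, so no direction can be given for this gene. The 11 neutrophil markers analysed summed to 83.1 to 289 CPM in Blood_Normal, 127 to 343 CPM in Blood_NMO and 496 to 1927 CPM in Brain_NMO. Brain_NMO replicate 2, with the highest Csf3r, held the highest of these sums, and Brain_NMO replicate 3, with no count of Csf3r, held the next highest, 1207 CPM. Retnlg and Mmp9 were at 0 in the 3 brain libraries, and Ltf was at 0 in the 6 blood libraries. The part of neutrophil transcripts in Csf3r was not tested. Of the 3407 windows of 75 bases in the Csf3r transcript, 109 also occur in other genes, and 12 of these lie among the 426 windows of its last 500 bases, so part of its counts may belong to other genes.

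Flt3 encodes the receptor for FLT3 ligand (chr5:147330741-147400489, minus strand, GRCm38), which is used by early progenitors and by dendritic cells and their precursors. It was measured at 27.6, 19.0 and 42.2 CPM in Blood_Normal, at 23.95, 4.14 and 0 CPM in Blood_NMO, and at 23.7, 0.0951 and 28.4 CPM in Brain_NMO. The 3 normal libraries were at 19.0 CPM or above, and each NMO group held a library at 0 or at 1 count. Both of these are the libraries with the fewest genes. Its log2 fold change was -1.66 for Blood_NMO against Blood_Normal (standard error 2.43, 95% interval -6.87 to 3.55), 0.89 for Brain_NMO against Blood_NMO (standard error 2.39) and -0.77 for Brain_NMO against Blood_Normal (standard error 2.38, edgeR adjusted p = 1 in each). Without both of those libraries the values were -1.07, 0.91 and -0.17 in turn, and without Blood_NMO replicate 3 alone the value of Brain_NMO against Blood_NMO was 0.32. Dendritic cell markers summed to 195 to 232 CPM in Blood_Normal, 149.6 to 276 CPM in Blood_NMO and 228 to 754 CPM in Brain_NMO, with 0, 0 and 2 (Batf3 and Ccr7) of the 9 at 0 in each library of the group. Their part was not tested, nor was that of Gm26597, an antisense gene that overlaps Flt3 by 936 bases.

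Kit encodes the receptor for stem cell factor (chr5:75574916-75656722, plus strand, GRCm38), a receptor of progenitors and mast cells. Its levels were 2.59, 7.19 and 35.6 CPM in Blood_Normal, 11.1, 8.60 and 0 CPM in Blood_NMO, and 10.1, 0.0951 and 9.45 CPM in Brain_NMO. Blood_Normal replicate 3 was far above the other libraries, which spanned 0 to 11.1 CPM. The means of Blood_NMO and Brain_NMO were 6.55 ± 5.81 and 6.54 ± 5.59 CPM (SD, n = 3), with a log2 fold change between them of -0.0033 (standard error 2.82, 95% interval -6.05 to 6.04). An interval of that width does not show that the levels were alike. Blood_NMO and Brain_NMO each had a log2 fold change near -1.2 against Blood_Normal (-1.20 and -1.21, standard error 2.86 in both, edgeR adjusted p = 1). Without Blood_Normal replicate 3 these values were 0.42 and 0.43, and without both libraries with the fewest genes they were -0.62 and -0.61. The latter fit gave 0.0032 for Brain_NMO against Blood_NMO. Markers of mast cells and basophils summed to 28.7 to 163 CPM in Blood_Normal, 51.5 to 159 CPM in Blood_NMO and 0.0951 to 27.1 CPM in Brain_NMO, with 6, 4 and 8 of the 10 at 0 in each library of the group, Tpsb2, Mcpt4 and Fcer1a in each group. Cma1 held 54.4, 25.3 and 163 CPM of the sums in Blood_Normal and 102, 48.9 and 51.5 CPM in Blood_NMO. In replicate 3 of both blood groups the sum was Cma1 alone. Markers of stem and progenitor cells summed to 144 to 208 CPM in Blood_Normal, 99.5 to 107 CPM in Blood_NMO and 159 to 460 CPM in Brain_NMO. Of these 9 markers, 3, 2 and 1 in turn were at 0 in each library of the group. Cd48 held 83.6, 191 and 175 CPM of the sums in Blood_Normal and 53.5, 62.8 and 0 CPM in Blood_NMO. In Blood_NMO replicate 3 the sum was Prtn3 alone. The part of either marker list in the level of Kit was not tested.

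**Figure D3:**
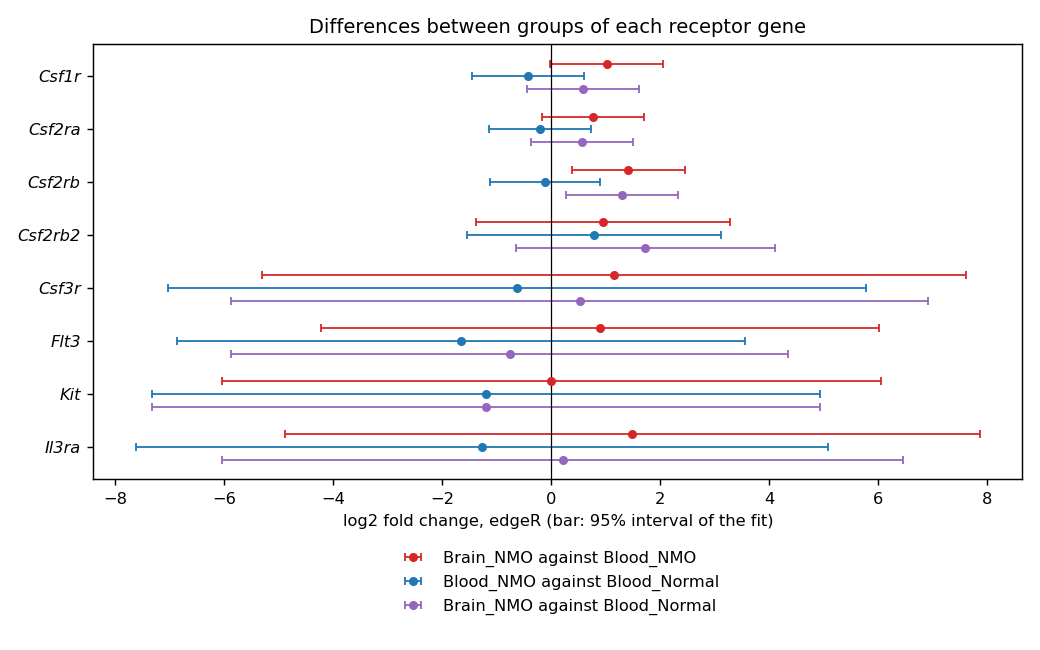
The log2 fold change of each receptor gene from edgeR's fit is plotted on the horizontal axis, with genes on the vertical axis, for 3 of the comparisons (colours), and bars give the 95% interval of the fit. The intervals of Csf2rb in both brain comparisons lie above 0, and those of Csf3r, Flt3, Kit and Il3ra span more than 10 log2 units.

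The comparison of Brain_NMO with Blood_NMO asks how monocytes in the lesioned brain differ from those still in the blood of the same model. At an adjusted p under 0.05 edgeR's quasi-likelihood test called 0 of the 8 receptor genes, where 0.247% of all genes tested were called, and DESeq2 and limma-voom also called 0. At the unadjusted threshold of the study 1 gene was higher, Csf2rb, where 1.48% of all genes tested were higher. Groups did not overlap for 2 genes, Csf1r and Csf2rb, both higher in the brain, where 6.3% of all genes had higher and non-overlapping brain libraries. With limma-voom 4 genes passed the unadjusted threshold, which were Csf1r, Csf2ra, Csf2rb and Csf2rb2, where limma-voom passed 12.8% of all genes in either direction, against 5.32% with edgeR. Values were positive for 7 of 8 genes with a median log2 fold change of 0.98, beside a median of 0.05 over all genes tested. These 7 include Csf3r, which was -3.30 with limma-voom. The standard errors of Csf3r, Flt3 and Il3ra were 3.01, 2.39 and 2.97, so their signs are uncertain.

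Blood_NMO against Blood_Normal asks whether blood monocytes differed after the brain injury. For this comparison edgeR called 0 of the 8 genes after adjustment and 0 at the unadjusted threshold, where 0% and 0.712% of all genes were called, and DESeq2 and limma-voom also called 0 at both. The libraries of both groups overlapped for each of the 8 genes, where 6.8% of all genes had groups that did not overlap. The median log2 fold change was -0.54 beside -0.16 over all genes. The widths of the intervals of Csf1r, Csf2ra and Csf2rb limit what could be seen, since they reach down to log2 fold changes of -1.46, -1.14 and -1.13 in turn.

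Brain_NMO against Blood_Normal shares its libraries with the other comparisons. At an adjusted p under 0.05, 0 of the 8 genes were called by edgeR, DESeq2 and limma-voom, where edgeR called 0.247% of all genes. At the unadjusted threshold 1 gene, Csf2rb, was higher, where 1.75% of all genes were higher, and its groups were also the only ones of the 8 that did not overlap, where 6.07% of all genes were higher without overlap. Against the mean of both blood groups, 0 genes passed the adjusted threshold with the same tools (0.435% of all genes with edgeR). The 1 gene higher at the unadjusted threshold was again Csf2rb (2.62% of all genes), as was the 1 gene above each of the 6 blood libraries (3.57% of all genes).

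The receptor genes also varied to different degrees over the 9 libraries as a whole. The SD of log2(CPM + 1) was 0.62 for Csf2ra, 0.78 for Csf2rb and 0.83 for Csf1r, and 7.63%, 11.9% and 13.4% of the genes tested had a smaller one. It was 1.36 for Csf2rb2, 1.54 for Il3ra, 1.70 for Kit, 1.90 for Csf3r and 2.11 for Flt3. The genes with the most similar profile were found by the root mean square difference of centred log2(CPM + 1) over the 9 libraries. For Csf1r these were Prex2 (0.20), Actb (0.27) and Lyn (0.28), where the median over all genes was 1.65. Lyn encodes a Src-family kinase of myeloid receptors. For Csf2rb they were Ctss (0.31), which encodes a lysosomal protease of antigen-presenting cells, Lrp1 (0.33), an endocytic receptor, and Rpl11 (0.33), with a median of 1.93. The nearest genes were Gm5148, Tceb3 and Rps23 for Csf2ra (0.27 to 0.30), and Parp3, Rragc and Dnajb11 for Csf2rb2 (0.55 to 0.68). For the low genes they were Rcn1, Wdr45 and Klhl4 for Csf3r (0.68 to 0.71), Rab3d, Zbed4 and Fbxo9 for Flt3 (0.32 to 0.41), Armcx2, Ndufaf4 and Wrap53 for Kit (0.43 to 0.54), and Jun, Dusp1 and Rab33b for Il3ra (0.61 to 0.63). Points of such a profile share library depth and the sparse libraries.

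**Figure D4:**
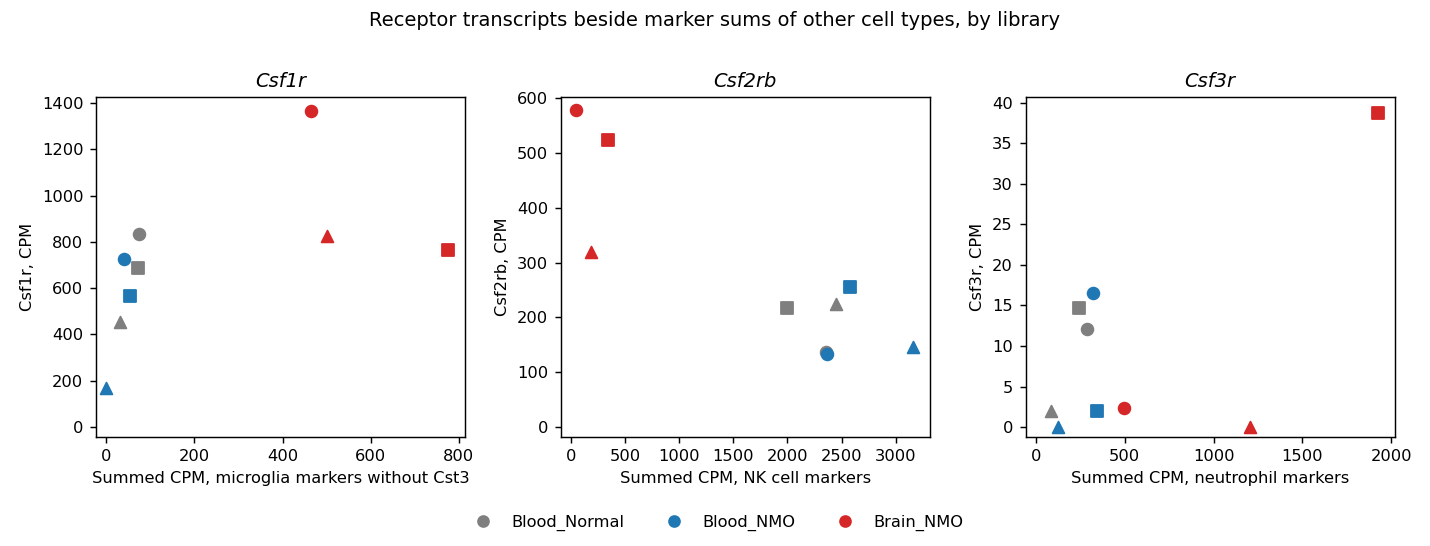
Each panel sets a receptor gene (vertical axis, CPM) against the summed CPM of a marker list (horizontal axis) in the 9 libraries, with groups by colour and replicates 1, 2 and 3 as circle, square and triangle. The microglia sums leave out Cst3, a choice made after its values were seen, and without it the brain libraries have the highest sums, 464 to 775 CPM. With all 12 markers Brain_NMO replicate 3, at 1407 CPM, lies below Blood_Normal replicate 3, at 1517 CPM. The brain libraries also have the lowest NK cell sums, 48.5 to 346 CPM.

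Platelet, erythroid and T cell markers were lower in each brain library than in each blood library, while B cell and eosinophil markers overlapped. Platelet markers summed to 0 to 39.7 CPM in Brain_NMO, against 185 to 1468 CPM in Blood_Normal and 354 to 1293 CPM in Blood_NMO, and erythroid markers to 1.05 to 402 CPM, against 898 to 4277 CPM and 1641 to 5403 CPM. T cell markers summed to 0 to 23.0 CPM in Brain_NMO, 47.3 to 148 CPM in Blood_Normal and 31.9 to 94.7 CPM in Blood_NMO. B cell markers reached 37.8, 77.1 and 72.7 CPM at most, and eosinophil markers 14.7, 23.7 and 22.4 CPM. The part of these transcripts in the brain levels of Csf1r, Csf2ra and Csf2rb was not tested.

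The ligand genes of these receptors had no count in the sorted cells or had counts in only some libraries. Of 8 ligand genes, Il34, Csf2, Il3 and Il5 had no count in any of the 9 libraries, and Csf3 had a count in 1 library, Blood_NMO replicate 1, at 1.26 CPM. Csf1 was measured at 20.3, 0 and 0 CPM in Blood_Normal, at 9.80, 6.31 and 0 CPM in Blood_NMO, and at 0, 0 and 9.75 CPM in Brain_NMO. Flt3l had 35.1, 9.94 and 0 CPM, 21.3, 30.7 and 0 CPM, and 4.30, 0 and 0 CPM in the same order. Kitl, the ligand of KIT, was at 0 in the Blood_NMO libraries, at 4.603, 0 and 0 CPM in Blood_Normal and at 8.93, 0 and 57.8 CPM in Brain_NMO (edgeR adjusted p = 0.802, Brain_NMO against Blood_NMO, past the unadjusted threshold). Its brain libraries included one at 0, so the groups overlapped, and no fold is given against a group at 0.

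Few of the signalling proteins downstream of these receptors passed a threshold. Of 25 genes 24 were tested, and between Brain_NMO and Blood_NMO 12 had a positive log2 fold change, with a median of -0.01. After adjustment edgeR called 0 of them, where 0.247% of all genes tested were called. At the unadjusted threshold 1 was higher and 2 were lower, where 1.48% of all genes tested were higher and 3.84% lower. Jak1, a kinase used by many cytokine receptors, was measured at 523, 352 and 406 CPM in Brain_NMO and at 1170, 1159 and 776 CPM in Blood_NMO (log2 fold change -1.28, standard error 0.34, edgeR adjusted p = 0.316). Pik3r1, a regulatory subunit of PI3-kinase, had 17.3, 98.8 and 48.7 CPM in Brain_NMO and 210.4, 241 and 228 CPM in Blood_NMO (log2 fold change -2.04, standard error 0.65, adjusted p = 0.587). Fgr, a Src-family kinase of myeloid cells, was at 389, 268 and 458 CPM in Brain_NMO and at 163, 221 and 43.1 CPM in Blood_NMO (log2 fold change 1.38, standard error 0.62, adjusted p = 0.802). The groups of 6 of the 24 genes did not overlap, 3 higher and 3 lower, where 6.3% and 6.05% of all genes were higher and lower without overlap. Beside these 3 genes they were Lyn (log2 fold change 0.85, standard error 0.46, adjusted p = 0.811), Grb2 (0.68, standard error 0.47, adjusted p = 1) and Jak2 (-0.94, standard error 0.64, adjusted p = 1), named after their values were seen. Jak2, the kinase bound by the shared beta chain, was at 99.0, 67.4 and 87.7 CPM in Brain_NMO, at 103, 129.9 and 256 CPM in Blood_NMO and at 125, 114 and 219 CPM in Blood_Normal, lower in each brain library than in each blood library. Jak1 and Pik3r1 also passed the unadjusted threshold against Blood_Normal, with log2 fold changes of -1.08 and -2.04, where 4.07% of all genes were lower. Between the blood groups 0 of the 24 passed either threshold, where 0% of all genes passed the adjusted and 0.712% the unadjusted one.

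Inhibitors of these receptors, such as SOCS proteins and phosphatases, showed no call. Of 14 genes 13 were tested, 5 had a positive value between Brain_NMO and Blood_NMO, and the median was -0.31. For them edgeR called 0 after adjustment, where 0.247% of all genes tested were called. At the unadjusted threshold it called 0, where 1.48% of all genes were higher and 3.84% lower. That count was also 0 against Blood_Normal, with a median of 0.06, where 1.75% of all genes were higher and 4.07% lower. Between the blood groups it was 0 as well, where 0.712% of all genes were called.

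Of 15 transcription factors known to act on these receptor genes, 13 were tested. Between Brain_NMO and Blood_NMO 8 had a positive value, with a median of 0.48. After adjustment 1 was called, which was lower, where 0.247% of all genes tested were called in either direction. Irf8, which encodes a factor of monocyte and dendritic cell development, was measured at 265, 137 and 192 CPM in Brain_NMO, at 1279, 1431 and 1877 CPM in Blood_NMO and at 1642, 1290.0 and 1557 CPM in Blood_Normal. It fell in the brain, by 2.95 on the log2 scale against Blood_NMO (standard error 0.34, edgeR adjusted p = 0.00183) and by 2.92 against Blood_Normal (standard error 0.34, adjusted p = 0.00205). Its brain and blood libraries did not overlap.

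Of 15 other cytokine receptors, 14 were tested, and 9 had a positive value between Brain_NMO and Blood_NMO, with a median of 0.51. At the unadjusted threshold 1 was higher and 1 lower, where 1.48% and 3.84% of all genes were, and edgeR called 0 after adjustment, where 0.247% of all genes were called. Brain and Blood_NMO libraries did not overlap for 4 higher genes (Il4ra, Il6st, Il10rb and Tgfbr1) and 1 lower gene (Ifngr1), where 6.3% and 6.05% of all genes did so. Il10rb and Tgfbr1 are named after their values were seen. Il4ra, a chain of the receptors for IL-4 and IL-13, had 274, 408 and 254 CPM in Brain_NMO and 146, 135 and 92.1 CPM in Blood_NMO (log2 fold change 1.33, standard error 0.56, edgeR adjusted p = 0.802). Ifngr1, the ligand-binding chain of the interferon-gamma receptor, had 332, 328 and 229 CPM in Brain_NMO and 683, 717 and 955 CPM in Blood_NMO (log2 fold change -1.41, standard error 0.34, adjusted p = 0.209). Both passed the unadjusted threshold against Blood_Normal as well, at 1.26 and -1.31. Il6st, the shared chain of the receptors for IL-6 and oncostatin M, passed it only against the mean of both blood groups (log2 fold change 2.96, standard error 1.34, adjusted p = 0.618), and had 65.3, 87.0 and 120.5 CPM in Brain_NMO.

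**Figure D5:**
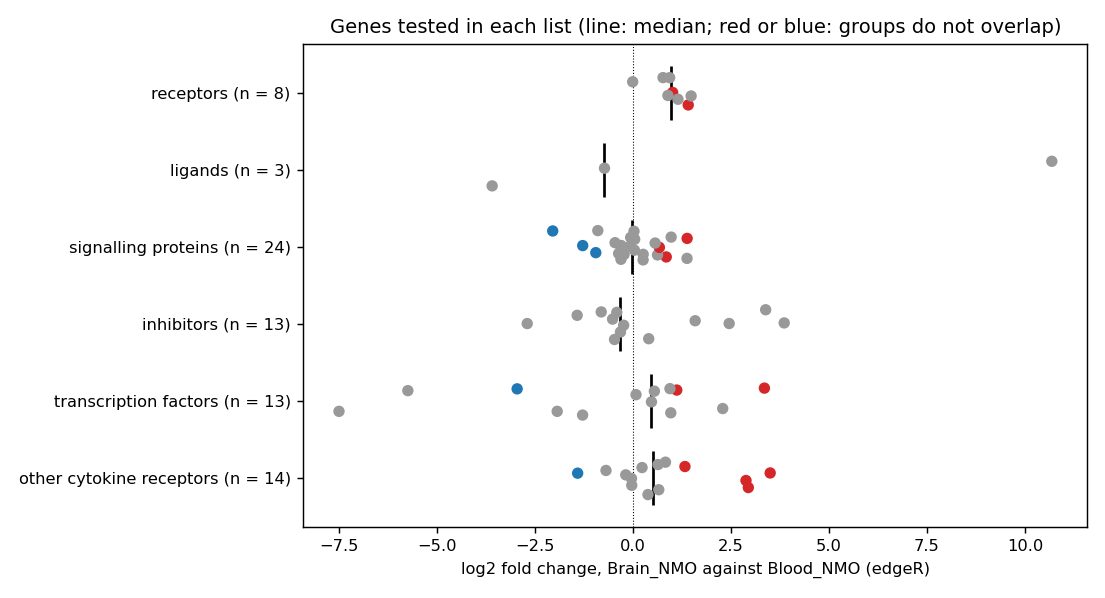
Each dot is a tested gene of a list, placed by its log2 fold change of Brain_NMO against Blood_NMO from edgeR on the horizontal axis, and vertical lines mark the median of each list. Red and blue dots are genes whose brain libraries lie all above or all below the Blood_NMO libraries, and the ligand farthest to the right is Kitl, whose value depends on a prior count because its Blood_NMO libraries were at 0.

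The sequence around start sites of the receptor genes was read from a RefSeq table. The table (GRCm38.p6) gave a window from 250 bases before to 50 bases after a start site for 6 of the 8 genes, in 7 windows, with none for Csf1r and Csf2rb. They were searched on both strands for the letters GAGGAAG, a core of sites of PU.1, the factor encoded by Spi1. The letters occurred in the windows of Csf2ra, Csf2rb2, Csf3r and Kit and not in those of Flt3 and Il3ra, and 13.6% of the 32851 windows in the table held them. The letters TGTGGT for RUNX factors (16.8% of windows) and TTGCGCAA for C/EBP factors (0.183%) occurred in none of the 7 windows. A match describes the letters only, and the absence of one says nothing about the factor. Spi1 itself had a log2 fold change of 0.97 between Brain_NMO and Blood_NMO (standard error 0.57, edgeR adjusted p = 0.893), with overlapping groups. The RefSeq start sites of Csf2ra, Csf3r, Kit and Il3ra lie inside the spans of these genes that GENCODE gives. Their windows are thus not regions wholly before those genes, and no stretch is printed for Csf3r, Kit and Il3ra. Stretches of 80 bases with the letters in capitals are printed for 2 receptor chains, those of GM-CSF and IL-3. That of Csf2ra is chr19:61228419-61228498 (minus strand), where both matches share 1 base. Its last bases reach into the gene as GENCODE gives it, so that the first match lies partly and the second wholly inside the gene. That of Csf2rb2 is chr15:78305842-78305921 (minus strand), where the match is on the reverse strand.
Csf2ra: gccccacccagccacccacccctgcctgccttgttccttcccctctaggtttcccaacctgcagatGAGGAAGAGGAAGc
Csf2rb2: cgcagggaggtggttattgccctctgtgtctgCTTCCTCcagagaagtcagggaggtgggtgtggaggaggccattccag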

How the data were processed

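Monocytes sorted from blood and brain were profiled in 9 QuantSeq libraries, 3 per group as the sample titles give them. For each, cells of 5 mice were pooled. Single-end reads of 75 bases were aligned by the authors with Bowtie2, bedtools counted both unique and multiple alignments, and raw read counts per gene symbol were deposited. Per the labels the build was mm10, and versions are not given in the sources used here. Of each of 35 repeated symbols, the entry of highest count was used. Counts were tested in R 4.3.3 with edgeR 4.0.16 (quasi-likelihood, TMM factors, filterByExpr, all 9 libraries in 1 fit) and adjusted by Benjamini-Hochberg over 10107 genes. The common dispersion was 2.87. The procedure was run on simulated data, with a pass required only at a dispersion below that of these data. That run therefore does not show how many true differences would be found here. Alternatives were RLE factors, library size alone, other count filters, only the groups compared, a replicate block, each library left out, both libraries with the fewest genes left out, Rn45s left out, repeated symbols summed, DESeq2 1.42.0 and limma 3.58.1 (voom with quality weights). CPM used TMM factors. Wilson intervals and the floor of 3 counts cover counting error only, since no molecular identifiers are described.

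All 8 receptor genes were named. From each further list, genes called after adjustment were named, and otherwise up to 3 per comparison with the smallest unadjusted p under 0.05. Spi1 is named outside this rule for its sequence motif. The marker genes beside Csf1r, Csf3r, Il3ra and Kit and the ligand levels were added after their values were seen. The members, lists and tests were chosen with earlier results of these data known. Symbols were matched to GENCODE M21 (GRCm38) and RefSeq promoter windows for sequence and position only. Ly6g, 1 T cell marker and 1 B cell marker were not analysed here. A gene of the transcription factor list that the naming rule selects is not reported here.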

Additional observations from a re-analysis of the deposited data

How the results depend on the processing

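The count of receptor genes at an adjusted p under 0.05 was 0 in each comparison under each alternative. At the unadjusted threshold the main count was 1 (Csf2rb) for each brain comparison, where 5.32%, 5.82% and 6.89% of all genes passed against Blood_NMO, Blood_Normal and the mean of both blood groups. Against Blood_NMO it was 2 with RLE factors, library size alone, no expression filter or at least 10 counts in every library, 3 with the replicate block and 4 with limma-voom, and it ranged from 1 to 2 with a library left out. The shares of all genes were 4.85% to 11.6% in the first 4 of these, 3.64% with the block and 12.8% with limma-voom, and the genes added were Csf1r, with the block also Csf2ra and with limma-voom also Csf2ra and Csf2rb2. Against Blood_Normal it was 2 with limma-voom (Csf2rb2 added, 11.7% of all genes) and ranged from 0 to 1. Against the mean of both blood groups it was 2 with RLE factors, library size alone, no filter, at least 10 counts or both libraries with the fewest genes left out (Blood_NMO replicate 3 and Brain_NMO replicate 2, called sparse here), 3 with the replicate block and 4 with limma-voom, and it ranged from 1 to 2 with a library left out. There the shares were 7.15% to 14.1%, 4.72% and 13.1%, and the same genes were added. The direction of Csf2rb in brain comparisons held in each alternative, from 1.22 to 1.78 against Blood_NMO and from 1.10 to 1.53 against Blood_Normal, and its lowest adjusted p was 0.0507, against the mean of both blood groups with at least 10 counts in every library.

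Of 616 log2 fold changes under alternatives, 570 kept their direction and 46 reversed. None of the reversed values had passed a threshold, and the cause was not tested. For Brain_NMO against Blood_NMO, Kit was 0.11 with RLE factors, 0.071 with library size alone, 0.0032 without both sparse libraries, 0.11 with DESeq2 and -0.57 to 0.60 with a library left out. Csf3r was -2.94 without both sparse libraries, -3.30 with limma-voom and -2.35 to 3.79 with a library left out. For Blood_NMO against Blood_Normal, Csf2rb was 0.053 with library size alone, 0.0078 without both sparse libraries, 0.013 with limma-voom and -0.47 to 0.051 with a library left out. Csf2rb2 was -0.39 without both sparse libraries and -0.39 to 1.76 with a library left out. With limma-voom Kit was 0.77 and Il3ra 0.26, and with a library left out Kit ranged from -1.81 to 0.42, Il3ra from -1.87 to 2.14 and Csf2ra from -0.52 to 0.032. For Brain_NMO against Blood_Normal, Csf3r was -2.25 with the replicate block, -2.98 without both sparse libraries, -4.16 with limma-voom and -2.98 to 1.11 with a library left out. Il3ra was -0.023 without both sparse libraries and -0.34 to 3.62 with a library left out, and Kit was 0.094 with limma-voom and -1.71 to 0.43. Against the mean of both blood groups, Csf3r was -0.79 with the replicate block, -2.96 without both sparse libraries, -3.73 with limma-voom and -2.67 to 2.15. Flt3 was -0.43 with the replicate block, -0.21 with limma-voom and -0.47 to 1.14, and Kit ranged from -1.06 to 0.22.

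The groups share replicate numbers, but same-numbered libraries deviated together only weakly (correlations from -0.01 to 0.12), so the numbers were not taken as a pairing, and the replicate block is given as an alternative only. In 5 of 9 cases a library correlated best with its own number, a hint from the data and not from the design. These cases were each number between the blood groups, and replicate 1 in both pairs with the brain. Replicate 1 had the largest Rn45s share of its group, 43.6%, 42.2% and 39.3% in Blood_Normal, Blood_NMO and Brain_NMO. It also had the most genes with a count, 10669, 11556 and 9875 in turn. Whether Blood_NMO and Brain_NMO came from the same mice is not given in the sources used here. The fit of only the groups compared does not exist for the mean of both blood groups, and Csf3r, Flt3, Kit and Il3ra were not tested with at least 10 counts in every library. The library-to-library spread and counts near the floor limit what can be seen of these 4 genes.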
